A study of Mus musculus with 8 samples.

Results

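The loss of Foxi3 was examined for its effect on transcripts of 9 transcription factors of hair follicle stem cells and their progenitors, in epithelium of the back skin of E15.5 mouse embryos. The factors, chosen by name, were Lhx2, Sox9, Nfatc1, Runx1, Tbx1, Tcf7l1, Tcf7l2, Nfib and Vdr, and each was represented by exactly 1 of the 26165 rows of the deposited array values. The tested embryos were homozygous for a total null allele of the forkhead gene Foxi3 (Foxi3-/-) and were recognised by their lack of a jaw and by genotype. The controls were Foxi3+/+ littermates, and all embryos had a C57/Bl6 background. There were 4 embryos of each genotype from 4 litters, with 1 array per embryo, and no source used here ties an embryo to a litter, so that embryos were treated as independent. The allele acts in every cell of the embryo, so a difference in the epithelium need not arise there. The epithelium had been freed from dermis with dispase, a protease. Values are log2 intensities of probe sets, in which 1 unit is a doubling, and they rank samples for a gene but not genes against each other.

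Hair follicles start as placodes, thickenings of the embryonic epidermis that grow down into the dermis as hair germs. Cells set aside in the growing follicle later become the stem cells of the bulge, the niche that renews hair in each cycle. Lhx2 and Sox9 are switched on early in this lineage and are needed for stem cells to form or persist. Nfatc1 holds stem cells in quiescence, Runx1 promotes their activation and Tbx1 their self-renewal. Tcf7l1 and Tcf7l2 bind DNA as partners of beta-catenin, Nfib coordinates follicle stem cells with neighbouring melanocyte stem cells, and Vdr, the vitamin D receptor, is needed for hair to cycle after the first coat.

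For 6 of the 9 factors, Lhx2, Runx1, Tbx1, Tcf7l1, Tcf7l2 and Vdr, sequence upstream of the gene was read from RefSeq (GRCm38.p6). The 3 shown belong to the factor with the largest difference between the groups (Lhx2), to another with a lower mean in null embryos that holds forkhead-type letters (Runx1), and to the factor with the largest difference in the opposite direction (Tcf7l1). Each is written 5′ to 3′ on the strand of the gene and ends at the base before the gene start, and capitals mark matches to AAACA, the core of forkhead sites, on either strand (TGTTT on the strand shown). The Lhx2 stretch lies at chr2:38339031-38339270 (plus strand), the Runx1 stretch at chr16:92826075-92826324 (minus strand) and the Tcf7l1 stretch at chr6:72789046-72789295 (minus strand).
Lhx2: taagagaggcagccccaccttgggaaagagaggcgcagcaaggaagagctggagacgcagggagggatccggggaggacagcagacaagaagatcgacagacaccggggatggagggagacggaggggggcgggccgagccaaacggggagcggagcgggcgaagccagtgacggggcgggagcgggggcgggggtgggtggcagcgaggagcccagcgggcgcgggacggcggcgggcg
Runx1: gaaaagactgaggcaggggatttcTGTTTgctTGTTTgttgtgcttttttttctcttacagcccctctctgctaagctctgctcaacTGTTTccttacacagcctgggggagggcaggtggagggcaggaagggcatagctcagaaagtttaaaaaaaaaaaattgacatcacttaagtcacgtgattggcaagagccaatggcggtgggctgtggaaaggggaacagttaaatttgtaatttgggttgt
Tcf7l1: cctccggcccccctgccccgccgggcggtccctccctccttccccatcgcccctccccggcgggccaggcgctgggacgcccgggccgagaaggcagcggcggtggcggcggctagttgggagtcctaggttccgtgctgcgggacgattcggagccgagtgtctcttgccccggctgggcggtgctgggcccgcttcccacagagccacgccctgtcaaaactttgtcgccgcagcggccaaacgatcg
The core AAACA was found 3 times upstream of Runx1, 226, 218 and 163 bases before the gene, and once upstream of Tcf7l2, but not in the windows of Lhx2, Tbx1, Tcf7l1 or Vdr. It occurs in 48.6% of 21982 upstream stretches of at most 250 bases, so that its presence in these windows is common. A longer forkhead site, GTAAACA, contains the core and occurs in 3.21% of these stretches, and the Tcf and Lef site CTTTGAT in 3.46%. These exact letters were in none of the 6 windows on either strand. Other forms of the longer sites were not searched. The Lhx2 and Tcf7l1 windows were rich in G and C, at 72.1% and 73.6%, while that of Runx1 had 45.6%, against a median of 50.8%. The motifs were picked after the sequences had been seen.

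Markers of epidermis, of other cell types and of handling were read in the same samples. The preparation held strong epidermal signal, since Krt5 lay at 12.03 to 12.05 in null samples, against 12.02 to 12.07 in wild-type samples, and the mean of 15 basal epidermis genes was 9.31 ± 0.07 in null and 9.30 ± 0.04 in wild-type embryos (SD, n = 4 per genotype). Foxi3 itself was 8.62, 8.43, 8.45 and 8.19 in null samples, against 8.96, 9.07, 9.20 and 8.55 in wild-type samples (limma adjusted p = 1.00). No source used here says whether its probes lie in the deleted sequence, so this level does not check the genotypes. In Foxi3 null 2 the mean of 18 dermal fibroblast genes reached 7.82, against 6.32 to 6.61 in the other null and 6.29 to 6.57 in the wild-type samples. In Foxi3 null 4 and wild type 4 the mean of 19 dissociation stress genes, immediate-early genes that respond to handling, was 8.32 and 9.25, against 7.26 to 7.36 in the other null and 7.39 to 7.59 in the other wild-type samples. All 19 stress genes were lower in null embryos on average. Merkel cell genes had list means of 5.15 to 5.50 in null samples, against 5.35 to 5.71 in wild-type samples, with 9 of 10 lower on average. Their specifier Atoh1 had 5.07, 4.75, 4.98 and 5.05 in null samples, against 6.04, 6.30, 5.50 and 5.02 in wild-type samples. Suprabasal epidermis genes had list means of 8.92 to 9.53 in null samples, against 9.18 to 9.77 in wild-type samples, with 15 of 16 lower on average. The part of these cell types and of handling in the differences of the 9 factors was not tested. By Y-linked genes, Foxi3 null 3, wild type 3 and wild type 4 were male.

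None of the 9 factors passed the test over all rows (limma, adjusted p under 0.05), and the background of that test was 3 calls, or 0.0115% of rows. Lhx2 was the one factor whose groups did not overlap, a state found in 1.95% of rows in either direction and in 1.07% with null embryos lower. At an unadjusted p under 0.05, 3 of 9 factors were counted, Lhx2, Nfatc1 and Runx1, all lower in null embryos, against 2.03% of rows on the lower and 1.69% on the higher side. That count depended on leaving the samples unpaired. With replicate number as a block, which no source used here ties to litters, it was 5 lower and 1 higher, against 5.49% and 3.45% of rows. Of the 9 differences 6 were below and 3 above 0, against 14125 below and 12040 above 0 among all 26165 rows. The median of the 9 was −0.21, while the median of all rows was −0.01. Since the factors were picked with earlier results of these data known, these counts describe the factors and do not test them as a group.

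**Figure D1:**
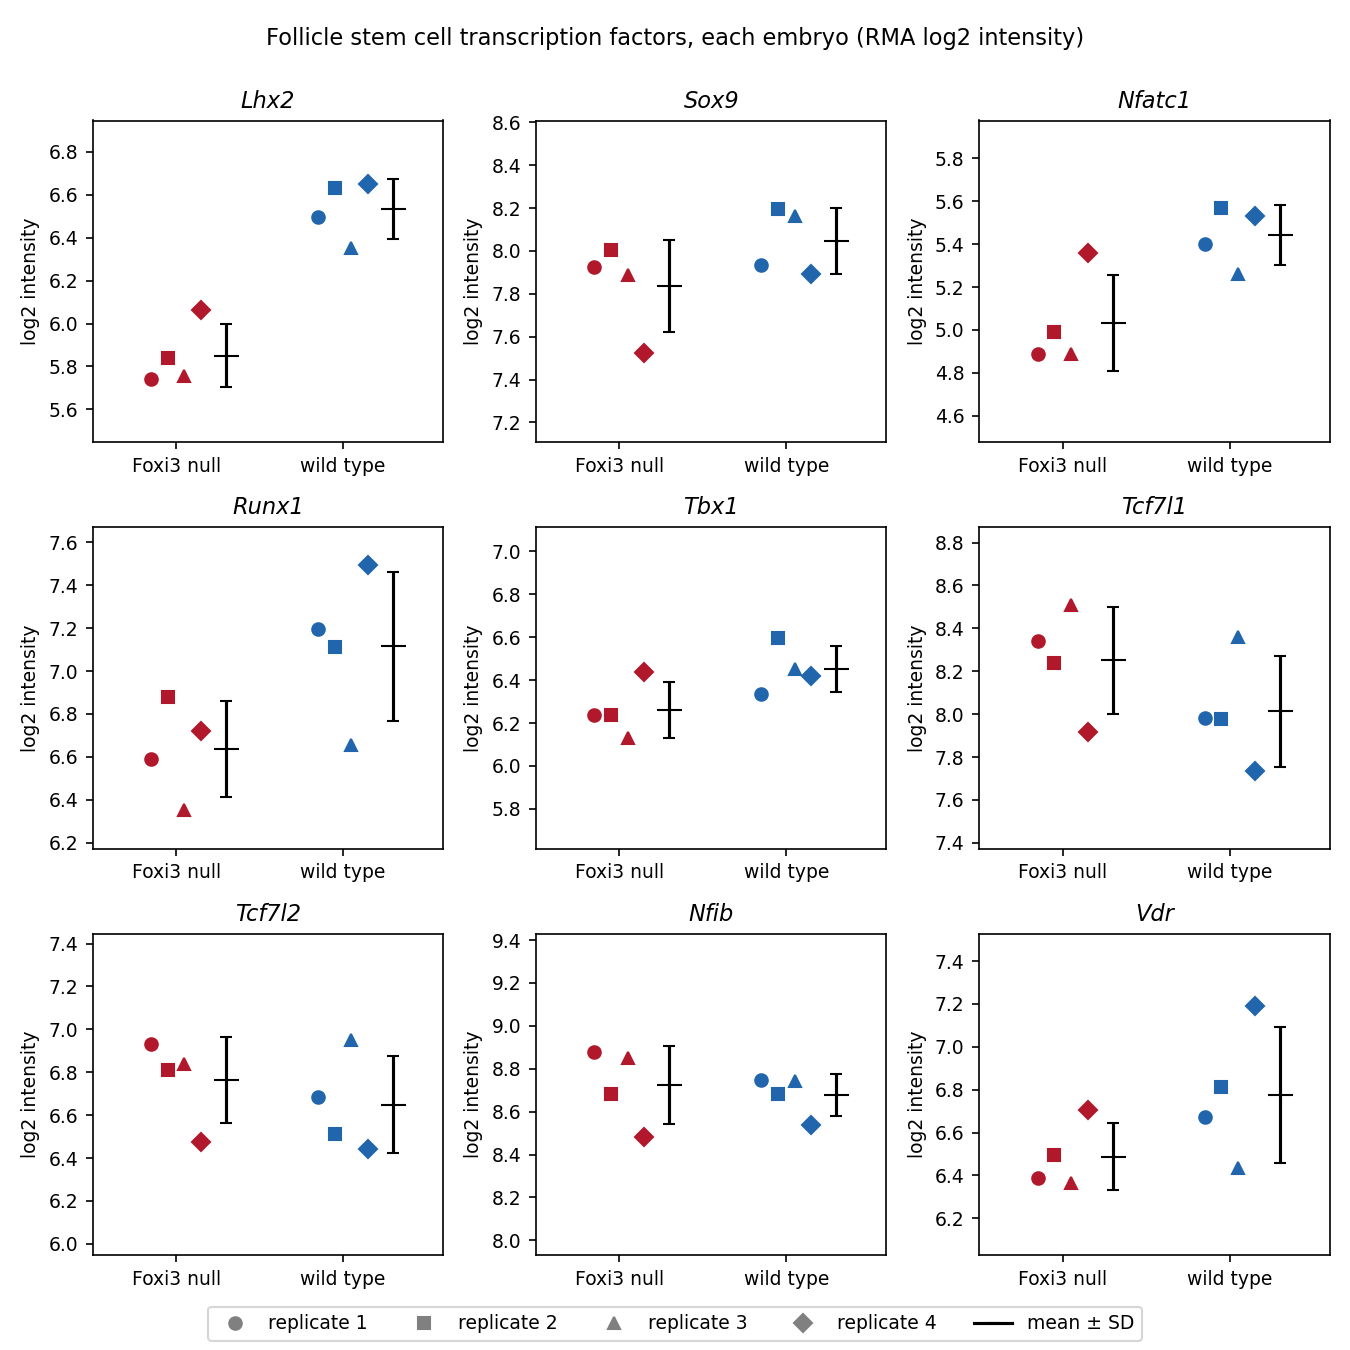
RMA log2 intensity (y axis, each panel spanning the same 1.5 units) of the 9 factors in each embryo, with Foxi3 null embryos on the left in red and wild-type embryos on the right in blue. Symbols mark the replicate number and black bars the mean ± SD of 4 embryos. The groups are apart for Lhx2, at 5.74 to 6.06 in null and 6.35 to 6.65 in wild-type embryos, and overlap for the other factors.

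Lhx2 (ENSMUSG00000000247), a LIM-homeodomain factor of placodes and later of bulge stem cells, had values of 5.74, 5.84, 5.76 and 6.06 in null samples, against 6.496, 6.63, 6.35 and 6.65 in wild-type samples. Every null value lay below every wild-type value, and the highest null embryo was number 4. The means were 5.85 ± 0.15 in null and 6.53 ± 0.14 in wild-type epithelium (SD, n = 4 per genotype). The difference of −0.68 (SE 0.10, 95% interval −0.90 to −0.46) corresponds to 62.3% of the wild-type intensity, and limma gave an adjusted p of 0.268. An exact two-sided permutation test gave p = 0.0286, the smallest that 4 against 4 embryos allow. Only 5 rows had a lower unadjusted p. The difference was −0.71 without both stress-high samples numbered 4, −0.68 without the fibroblast-high Foxi3 null 2 and −0.71 with embryo sex as a covariate. Leaving out the samples numbered 4 did not make the groups alike in stress. The stress means of the others were still apart, at 7.26 to 7.36 in null and 7.39 to 7.59 in wild-type samples. The part of stress in the Lhx2 difference was not tested. As whole epithelium was measured, fewer cells with Lhx2 transcripts and fewer transcripts per cell cannot be told apart, for this gene or any other here.

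Nfatc1 (ENSMUSG00000033016), a calcineurin-regulated factor that keeps bulge stem cells quiescent, had 4.89, 4.99, 4.89 and 5.36 in null samples, against 5.40, 5.57, 5.26 and 5.53 in wild-type samples. Of the null embryos 3 lay below all wild-type embryos, while Foxi3 null 4 exceeded wild type 3. The group means were 5.03 ± 0.22 in null and 5.44 ± 0.14 in wild-type epithelium (SD, n = 4 per genotype), a difference of −0.41 (SE 0.12, 95% interval −0.68 to −0.14). It did not pass over all rows (limma adjusted p = 1.00), and an exact permutation test, two-sided, gave 0.0571. Mean levels of 12 endothelium genes, a cell type that also expresses Nfatc1, were 4.35 ± 0.13 in null and 4.33 ± 0.09 in wild-type embryos (SD, n = 4 per genotype). Of these genes 8 were higher and 4 lower in null embryos on average, and only 1 was brighter than the median row. Pecam1 lay at 4.37 to 4.64 in null and 4.48 to 4.59 in wild-type samples. Cdh5, another endothelial gene, had 4.72, 5.73, 4.55 and 4.81 in null samples, against 5.03, 4.84, 4.63 and 4.67 in wild-type samples. The part of endothelium in the Nfatc1 values was not tested. Without both samples numbered 4 the groups no longer overlapped for Nfatc1 or Tbx1, a state that 11.9% of rows were then in.

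Runx1 (ENSMUSG00000022952), a Runt-domain factor that promotes the activation of follicle stem cells, had 6.59, 6.88, 6.35 and 6.72 in null samples, against 7.20, 7.11, 6.66 and 7.49 in wild-type samples. The groups overlapped through wild type 3, which lay below Foxi3 null 2 and Foxi3 null 4. The means were 6.64 ± 0.22 in null and 7.11 ± 0.35 in wild-type epithelium (SD, n = 4 per genotype). The difference was −0.48 (SE 0.18, 95% interval −0.88 to −0.08, limma adjusted p = 1.00), and p = 0.0857 in an exact two-sided permutation test. Runx1 is also a blood cell gene, and the mean of 17 leukocyte genes was 4.49 ± 0.12 in null and 4.50 ± 0.11 in wild-type embryos (SD, n = 4 per genotype). Ptprc, the pan-leukocyte gene, lay at 2.85 to 2.92 in null and 2.75 to 2.98 in wild-type samples. Its mean was at percentile 13.2 of all rows, and only 3 of the 17 genes were brighter than the median row. Values this dim can miss a difference, and the part of leukocytes in the Runx1 values was not tested.

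Sox9 (ENSMUSG00000000567), the HMG-box factor of the earliest stem cells in the placode, had 7.92, 8.004, 7.89 and 7.52 in null samples, against 7.93, 8.19, 8.16 and 7.89 in wild-type samples. The ranges overlapped, and in both groups embryo 4 was the lowest. The means were 7.84 ± 0.21 in null and 8.04 ± 0.15 in wild-type epithelium (SD, n = 4 per genotype), a difference of −0.21 whose 95% interval of −0.48 to 0.06 includes 0 (limma adjusted p = 1.00, exact permutation p = 0.171).

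Tbx1 (ENSMUSG00000009097), a T-box factor that sustains stem cell self-renewal, had 6.24, 6.24, 6.13 and 6.44 in null samples, against 6.34, 6.60, 6.45 and 6.42 in wild-type samples. Of the null embryos 3 lay below all wild-type embryos, and Foxi3 null 4 lay among them. The difference of −0.19 (SE 0.09, 95% interval −0.39 to 0.01) had limma adjusted p = 1.00 and an exact permutation p of 0.0857. Tbx1 also acts in muscle precursors, and the mean of 16 skeletal muscle genes was 4.78 to 4.93 in null samples, against 5.12, 5.15, 4.85 and 4.93 in wild-type samples, with 15 of the 16 lower in null embryos on average. The part of muscle RNA in the Tbx1 values was not tested.

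Vdr (ENSMUSG00000022479), the nuclear receptor for vitamin D, which the hair cycle requires, had 6.39, 6.49, 6.36 and 6.71 in null samples, against 6.67, 6.81, 6.43 and 7.19 in wild-type samples. The ranges overlapped, with embryo 4 the highest and embryo 3 the lowest in both groups. The difference was −0.29 (SE 0.15, 95% interval −0.64 to 0.06, limma adjusted p = 1.00, exact permutation p = 0.143).

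Tcf7l1 (ENSMUSG00000055799), which represses Wnt target genes in follicle stem cells when beta-catenin is absent, had 8.34, 8.24, 8.51 and 7.92 in null samples, against 7.98, 7.98, 8.36 and 7.74 in wild-type samples. The ranges overlapped over most of their width. The means were 8.25 ± 0.25 in null and 8.01 ± 0.26 in wild-type epithelium (SD, n = 4 per genotype), a difference of 0.24 (SE 0.16, 95% interval −0.12 to 0.59, limma adjusted p = 1.00, exact permutation p = 0.286). Its relative Tcf7l2 (ENSMUSG00000024985) had 6.93, 6.81, 6.84 and 6.48 in null samples, against 6.69, 6.51, 6.95 and 6.44 in wild-type samples. Wild type 3 was the highest sample of all, and the difference was 0.12 (95% interval −0.19 to 0.42, exact permutation p = 0.457). Both factors share a conserved DNA-binding domain, and no source used here says whether their probe sets share probes.

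Nfib (ENSMUSG00000008575), a nuclear factor I protein of follicle stem cells, had 8.88, 8.68, 8.85 and 8.48 in null samples, against 8.75, 8.68, 8.74 and 8.54 in wild-type samples. The wild-type embryos all lay within the null range. The difference of 0.05 (SE 0.10) had a 95% interval of −0.18 to 0.27 (limma adjusted p = 1.00, exact permutation p = 0.629), and it turned to −0.0046 when Foxi3 null 1 was left out.

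**Figure D2:**
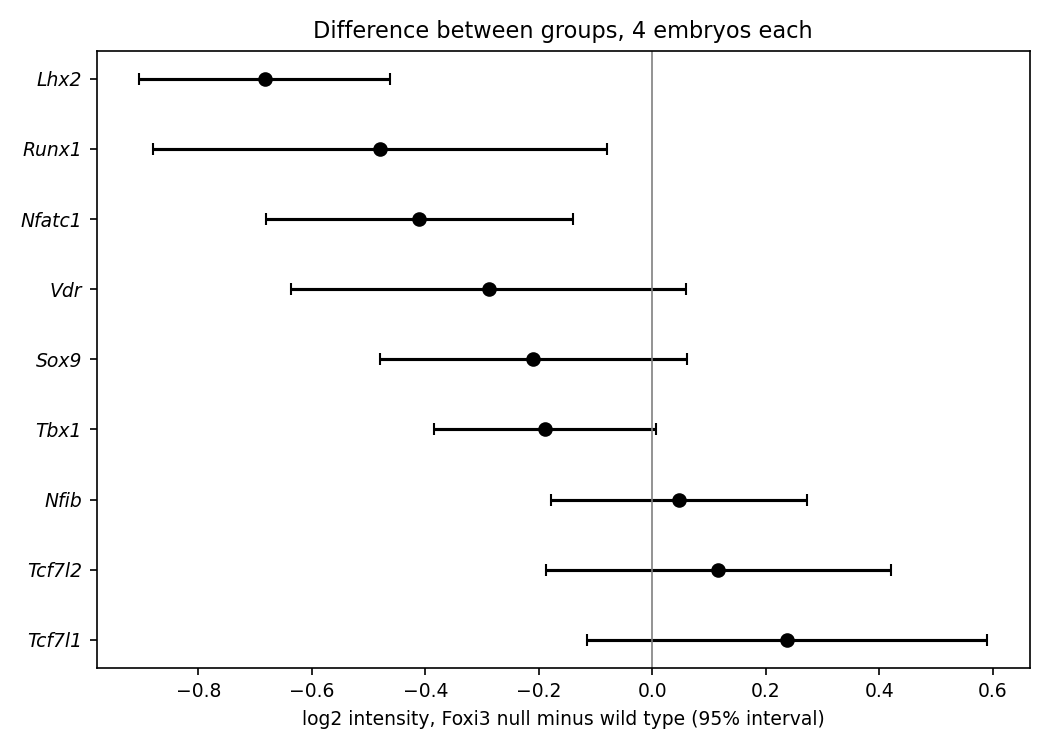
Difference in log2 intensity (x axis, Foxi3 null minus wild type, 4 embryos each) of the 9 factors (y axis), with points for the limma estimate and bars for its unadjusted 95% interval. The intervals of Lhx2, Runx1 and Nfatc1 lie below 0, and the other 6 include 0.

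The spread among embryos of the same genotype followed a shared pattern over several factors. In Foxi3 null 4, relative to the mean of the null group, Lhx2 stood at 0.21, Nfatc1 at 0.33, Vdr at 0.22 and Tbx1 at 0.18. In the same embryo Tcf7l1 stood at −0.33, Sox9 at −0.31, Tcf7l2 at −0.29 and Nfib at −0.24. Wild type 4 shared these directions for Lhx2 (0.12), Nfatc1 (0.09), Vdr (0.42), Tcf7l1 (−0.28), Tcf7l2 (−0.21), Sox9 (−0.15) and Nfib (−0.14), but not for Tbx1 (−0.03). These were the samples with the high dissociation stress means given above, 8.32 in null and 9.25 in wild type. Wild type 3 departed the other way, with Runx1 at −0.46 and Vdr at −0.34 beside Tcf7l1 at 0.35 and Tcf7l2 at 0.30. Its stress mean was 7.498, with wild type 1 and 2 at 7.59 and 7.39. The suprabasal epidermis mean was highest in embryo 4 of both groups (9.53 in null, 9.77 in wild type). It was lowest in embryo 3 of both (8.92 and 9.18). The mean of 9 melanoblast genes was likewise highest in embryo 4 (6.772 and 6.798) and lowest in embryo 3 (6.465 and 6.482). Not every marker list had that order. The basal epidermis mean was highest in Foxi3 null 3 (9.39) and wild type 4 (9.353), and the leukocyte mean in Foxi3 null 2 (4.587) and wild type 2 (4.646). What produced the shared departures of the factors was not tested.

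**Figure D3:**
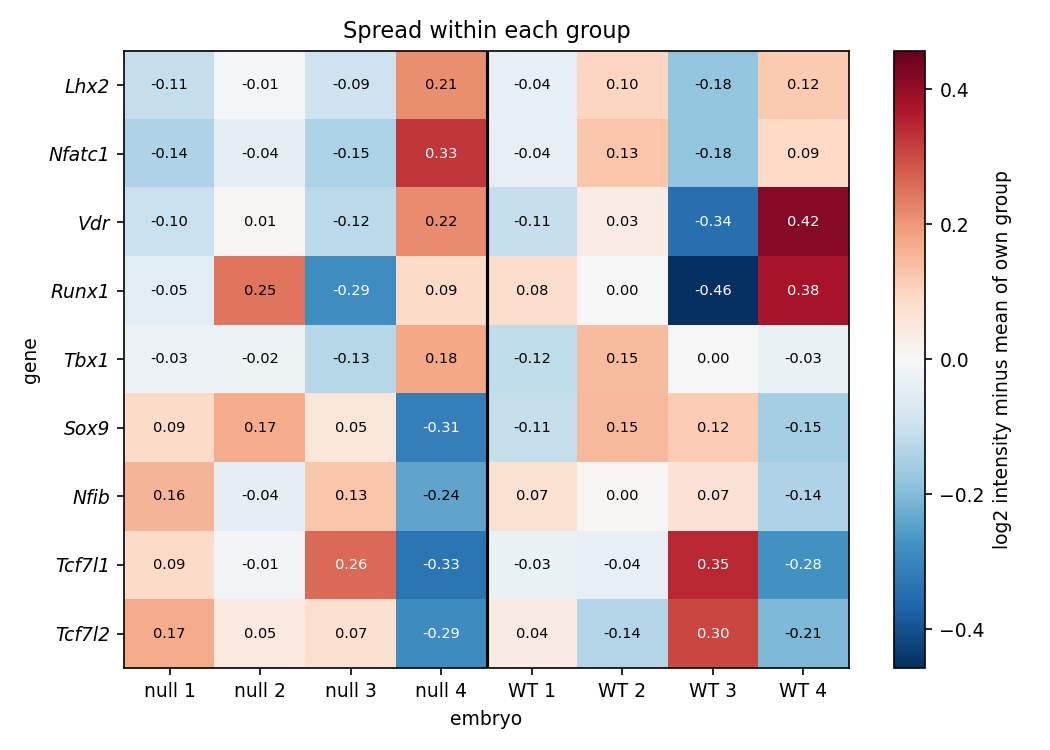
Log2 intensity of each factor (y axis) in each embryo (x axis) minus the mean of that embryo's own group, so that the difference between genotypes is removed. Red is above and blue below the group mean. Embryo 4 of both groups is above it for Lhx2, Nfatc1, Vdr and Runx1 and below it for Sox9, Nfib, Tcf7l1 and Tcf7l2.

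After the group means were subtracted, the values of Lhx2 over the 8 samples had a Pearson correlation of 0.97 with Nfatc1, 0.87 with Vdr, 0.69 with Runx1 and 0.66 with Tbx1. The correlation was −0.98 with Tcf7l2, −0.93 with Tcf7l1, −0.87 with Nfib and −0.64 with Sox9. These values describe 8 arrays that share their normalisation, and they were not tested. Of 12871 named genes brighter than the median row, those most like Lhx2 without that subtraction were Chdh, which encodes choline dehydrogenase (r = 0.98), the kinase gene Nuak1 (0.97), 2010300C02Rik (0.96), the calcium sensor gene Stim2 (0.95) and Arhgef5 (0.95). Nuak1 had 6.17, 6.33, 6.35 and 6.39 in null samples, against 6.87, 6.90, 6.60 and 6.85 in wild-type samples, a difference of −0.50 (limma adjusted p = 0.443). Chdh was at −0.40 (limma adjusted p = 0.729). Because Lhx2 was itself lower in every null embryo, a choice by this correlation favours genes that are lower in null embryos. The differences of these genes are therefore a description and not a separate test. With the group means subtracted, the 5 most alike were Synm, Aif1l, the simple epithelial keratin gene Krt8, Tinagl1 and Smap2, with r between 0.987 and 0.993. Krt8 was 8.66, 9.02, 8.62 and 9.77 in null samples, against 9.47, 9.79, 8.87 and 9.81 in wild-type samples, so that the ranges overlapped (limma adjusted p = 1.00).

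No partner or cofactor of these factors was called. Of 25 measured genes 0 passed over all rows in either direction (limma), against 0.0115% of rows. At an unadjusted limma p under 0.05 there was 1, lower in null embryos, against 2.03% of rows on that side. Below 0 were 15 and above 0 were 10, against 14125 and 12040 of all rows, and the median was −0.02. Hr, the corepressor known as hairless that binds the vitamin D receptor, had 6.72, 6.55, 6.35 and 6.76 in null samples, against 6.89, 7.25, 6.76 and 7.25 in wild-type samples. The Hr groups did not overlap, Foxi3 null 4 lying at 6.758 and wild type 3 at 6.762, and the difference was −0.44 (SE 0.14, limma adjusted p = 1.00). The groups were also apart for the corepressor gene Tle1 at −0.11 and for Ldb1, the adaptor that LIM-homeodomain factors need, at −0.05, making 3 of 25 lower against 1.07% of rows. That count was 1 after median centring, and 6 without Foxi3 null 4 or without both samples numbered 4, when 8.76% and 11.9% of rows were apart in either direction. Ldb1 was named after its values were seen. The list of partners was also written with earlier results of these data known, so that its counts do not test it. Ctnnb1, which encodes beta-catenin, was at 0.09, Tle4 at −0.16 and Ssbp2, which stabilises Ldb1 complexes, at −0.08.

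Among 32 measured relatives from the same families, 0 passed over all rows (limma), against 0.0115% of rows, and the median was −0.01. At an unadjusted limma p under 0.05 there was 1, higher in null embryos, against 1.69% of rows on that side. Groups were apart for 0 of them, against 1.95% of rows in either direction. Lef1, the placode relative of Tcf7l1, was at 0.20 and overlapped between the groups, with 9.70, 9.68, 9.87 and 9.39 in null samples, against 9.54, 9.45, 9.58 and 9.27 in wild-type samples. Nfatc4 was at 0.20 (limma adjusted p = 1.00), Nfia at −0.22 and the thyroid hormone receptor gene Thra at 0.10. The difference of 0.42 for Tbx18, a T-box gene of dermal condensates, rested on Foxi3 null 2, at 5.10 against 3.85 to 4.01 in the other null and 3.69 to 3.94 in the wild-type samples. Tbx15, the other T-box gene high in that sample, was chosen after its values were seen and had 6.32 there, against 3.55 to 3.89 in the other null and 3.42 to 4.01 in the wild-type samples.

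Other transcription factors of the follicle also gave 0 calls among 30 measured genes (limma), against 0.0115% of rows. At an unadjusted limma p under 0.05 there was 1, lower in null embryos, against 2.03% of rows on that side. Below 0 were 19 and above 0 were 11, against 14125 and 12040 of all rows, and the median was −0.03. Gata6, a factor of the upper follicle, was at −0.29, with 5.76, 5.80, 5.73 and 6.11 in null samples, against 6.10, 6.26, 6.15 and 6.02 in wild-type samples. Foxn1, the forkhead factor of hair keratinocyte differentiation, was at −0.19, Ovol1 at −0.27, Dlx3 at −0.16 and Prdm1 at −0.46, and none of these pairs of groups was apart.

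Follicle stem cell genes that do not encode transcription factors held the 1 gene of these lists that passed, against 0.0115% of rows. Of the 26 measured genes 6 lower and 1 higher had an unadjusted limma p under 0.05, against 2.03% and 1.69% of rows. Pthlh, whose product is parathyroid hormone-related protein, passed with a difference of −0.98 (SE 0.08, limma adjusted p = 0.00733), and averaged 6.14 ± 0.12 in null samples, against 7.12 ± 0.07 in wild-type embryos (SD, n = 4 per genotype). That call ended in 5 of 18 alternative settings, which were leaving out wild type 1, 2 or 4, leaving out both samples numbered 4 (adjusted p = 0.166), and the block on replicate number. Below 0 were 15 and above 0 were 11 of the 26 genes, against 14125 and 12040 of all rows, and the median was −0.09. Groups were apart for 4, all lower in null embryos (Pthlh, Krt79, Dkk3 and Shh), against 1.07% of rows. In either direction, 9 were apart without Foxi3 null 4, 9 without wild type 3 and 10 without both samples numbered 4, when 8.76%, 7.31% and 11.9% of rows were. The list was written with earlier results of these data known, so that these counts describe it and do not test it. Krt79, a keratin of the follicle opening, was at −1.18 with limma adjusted p = 1.00. Its groups were only just apart, since wild type 3 had 5.77 and the highest null embryo 5.68, while the other wild-type samples had 6.99 to 7.34. Dkk3, a secreted protein of the Dickkopf family, was at −0.28. Lgr5, the R-spondin receptor that marks cycling stem cells, was at −0.21 and overlapped between the groups, while Postn, a matrix gene also expressed by fibroblasts, was at 0.16.

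**Figure D4:**
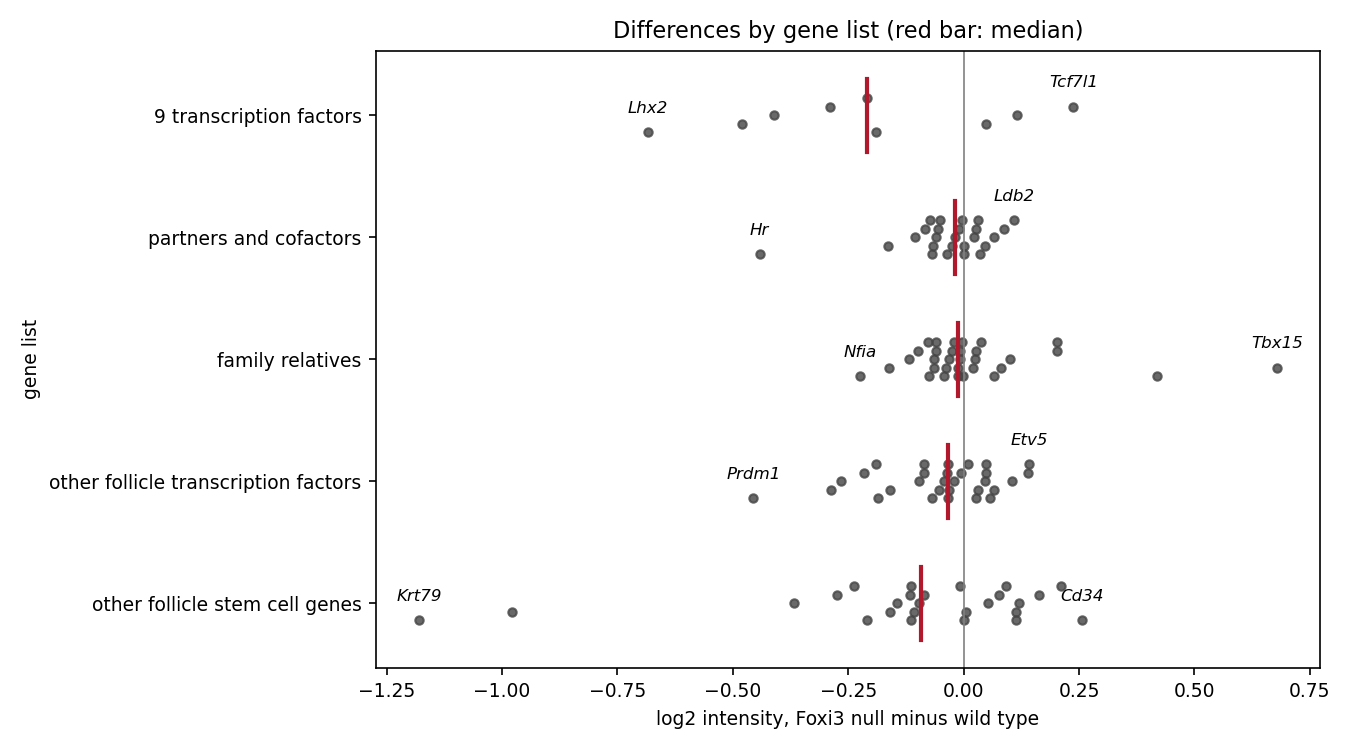
Difference in log2 intensity (x axis, Foxi3 null minus wild type, 4 embryos each) of every measured gene in the 9 transcription factors and 4 related lists (y axis), 1 point per gene with small vertical offsets for legibility, red bars for medians, and the lowest and highest gene of each list named. Medians lie between −0.21 for the 9 factors and −0.01 for the family relatives.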

How the data were processed

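RNA of 8 samples, each the back skin epithelium of 1 embryo, was fragmented and biotin-labelled for Affymetrix exon arrays, per the labels and the file headers. The deposited values are log2 intensities that the authors obtained with RMA, per the submitters' processing notes, which subtracts background, makes arrays comparable and condenses probes to 1 value per gene. No source used here gives its version, the probe annotation, any filter or the genome build. Sample values came from the table whose columns are named by sample, and symbols from the authors' deposited table, whose log2 group means differed by at most 7.5e-09 from means of these samples. That table's own 8 array columns carry no sample name and were left out.

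Foxi3 null minus wild type was fitted in R 4.3.3 with limma 3.58.1 (lmFit, eBayes) on all 26165 rows, two-sided, with no covariate and Benjamini-Hochberg adjustment over all rows, at a threshold of 0.05. Single genes also had an exact permutation test over 70 arrangements. The fit was tested on simulated data. Members, gene lists and tests were chosen with earlier results of these data known. Named besides the members were up to 5 genes of lowest unadjusted p from each of 4 lists (partners and cofactors, family relatives, other follicle transcription factors, other follicle stem cell genes) and the 5 genes most correlated with Lhx2, with and without group means. Alternatives were quantile normalisation, median centring, rows above the median, 1 row per symbol, array weights, embryo sex as a covariate, a replicate block, trend with robust moderation, and leaving out samples. Arrays give no read depth, their number limits the precision, and RMA compresses differences of dim genes.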

Additional observations from a re-analysis of the deposited data

Results flagged for a closer look

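A sample was picked out by Dixon's test at the 95% level, in which the distance of the highest or lowest sample to its neighbour is divided by the range of the 4 samples of its group. This held for 4 of 38 values tested, the 9 factors and 10 marker list means in each group, where chance gives about 1.9, and for none of the 9 factors. The dissociation stress mean of Foxi3 null 4 reached 8.32, with the remaining null embryos between 7.26 and 7.36, a gap of 0.909 of the range. That of wild type 4 was 9.25, against 7.39 to 7.59, a gap of 0.893. The Merkel cell mean of Foxi3 null 4 was 5.50, against 5.15 to 5.19, a gap of 0.898. The dermal condensate mean of Foxi3 null 2 was 6.08, against 5.25 to 5.36, a gap of 0.867.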

How the results depend on the processing

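Of 162 refits of the 9 log2 differences, 160 kept their direction and their side of the threshold. Lhx2 lay between −0.75 and −0.64 over 18 alternatives, and its limma adjusted p between 0.0210 and 0.899. The lowest came from the replicate number as a block with trend and robust moderation, chosen after seeing the data, where Lhx2 was at −0.68 and the 1 factor called. That setting called 71 rows, against 3 with no block, 0 with the plain block and 0 without both samples numbered 4. Deviations of same-numbered samples correlated between −0.04 and 0.49, and 5 of 8 samples correlated best with their own number. These values do not settle whether the numbers pair the samples. Since no source used here ties an embryo to a litter, the main fit left the samples unpaired. With the plain replicate block Lhx2 had limma adjusted p = 0.0794 and 0 factors were called. At an unadjusted p under 0.05 that block gave 5 lower factors, Lhx2, Nfatc1, Runx1, Vdr and Sox9, and 1 higher, Tcf7l1, against 5.49% and 3.45% of rows in limma. Nfib alone changed direction, lying between −0.0046 and 0.13 when 1 sample was left out. The count of factors with groups apart was 1 to 3 when 1 sample was left out, being 3 without Foxi3 null 4 (Nfatc1 and Tbx1 joined Lhx2; 8.76% of rows) or without wild type 3 (Nfatc1 and Runx1 joined; 7.31% of rows). It was 3 without both samples numbered 4 (Nfatc1 and Tbx1 joined; 11.9% of rows) and 2 after median centring (Tbx1 joined; 2.01% of rows). Genes with groups apart numbered 1 to 6 among partners and cofactors (2 after quantile normalisation) and 4 to 10 among other follicle stem cell genes. They numbered 0 to 4 among family relatives and among other follicle transcription factors. Over the same settings the share of all rows with groups apart ran from 1.77% to 11.9%. Each list reached its highest count without both samples numbered 4, when that share was 11.9%. Averaging rows of a symbol was not run, since each factor had 1 row. A second source of sample values was not run, since the 8 array columns of the authors' table carry no sample name. The group means of that table differed by at most 7.5e-09 from means of the values used.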
